A study of Mus musculus with 12 samples.

Results

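The genes described here are 34 members of the fibroblast growth factor (FGF) pathway: 22 ligand genes, 4 receptor genes and 8 genes induced by or acting on ERK signalling, which are called feedback genes below. The group called ligands throughout includes the FGF homologous factors Fgf11, Fgf12, Fgf13 and Fgf14, which are not secreted. They were chosen by name, and every array probe whose transcript accession mapped to one of the 34 symbols was taken. On the array design used for retinoic acid (RA) these were 49 of 55681 probes, and all 34 genes had at least 1 probe. On the design used for vitamin C (VC) they were 54 of 41174 probes and covered 33 genes, because no probe there matched Fgf4.

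The samples were J1 mouse embryonic stem cells grown without feeder cells, on gelatin, in serum replacement medium with LIF (leukaemia inhibitory factor, a cytokine against differentiation) at 1000 U/mL. Each group was exposed for 24 h and had 3 samples. The groups were RA at 1 µM, its solvent control DMSO at 1 µL, VC at 50 µg and its water control ddH2O at 1 µL, and the labels give no culture volume for the last 3. According to the series title, the question was which genes the compounds regulate in these cells. J1 is 1 cell line, and no source states whether samples were cultured apart, so p-values measure the spread between the samples alone, and this may be technical.

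FGF ligands are secreted proteins that bind receptor tyrosine kinases together with heparan sulfate and, through adaptor proteins and RAS, activate the kinase ERK. ERK then induces its own brakes, the Sprouty and Spred proteins and the phosphatase Dusp6, as well as the ETS transcription factors Etv4 and Etv5, so the RNA of these genes is widely used as a readout of the pathway. In mouse embryonic stem cells Fgf4 is the main ligand that the cells make for themselves, and its signal through ERK is known for preparing them to leave the naive state. LIF acts by another route, through STAT3.

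Levels are given as scaled intensity in arbitrary units: the log2 signal of a probe minus its array's 75th percentile, put back on the linear scale at the mean percentile of the design. They can be set against each other between samples for 1 probe, but not between probes or between the array designs. Each gene was read from its brightest probe. It was tested where the scanner software marked that probe as well above background on 3 or more of the 6 arrays compared. A gene was called where the limma p-value, adjusted over all genes tested, was under 0.05.

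The share of probes marked as well above background was 60.9% to 65.6% on the RA and DMSO arrays and 67.0% to 70.3% on the VC and ddH2O arrays, and no spot was saturated. Arrays of the same group correlated at 0.9919 to 0.9976 in RA and DMSO, and RA arrays correlated with DMSO arrays at 0.8983 to 0.9033. Within the VC and ddH2O groups the correlation was 0.9949 to 0.9974, against 0.9925 to 0.9955 across them. The unscaled 75th percentile was 287.7 to 388.1 on the RA arrays and 607.8 to 612.1 on the DMSO arrays, so signal strength moved with the treatment, and the effect of other scalings is given below. All RA arrays lay on 1 slide and all DMSO arrays on another, so slide and treatment cannot be told apart. Stem cell markers were present: the summed intensity of 9 pluripotency markers was 40000 to 44140 on the RA arrays and 232500 to 241500 on the DMSO arrays. On the other design the 8 pluripotency markers with a probe summed to 370000 to 401200 on the VC arrays and 346600 to 395600 on the ddH2O arrays. Dppa5a alone held most of these sums, with means of 34921 in RA, 152822 in DMSO, 296416 in VC and 301647 in ddH2O.

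Most of the pathway genes that could be measured differed between RA and DMSO, in both directions, as did most of all genes tested. The ligand Fgf4 and the readout genes Etv4, Etv5, Spry2 and Spry4 fell by large amounts. The ligands Fgf9, Fgf7 and Fgf18 and the receptors Fgfr1, Fgfr2 and Fgfr3 rose. Of the other readout genes, the phosphatase Dusp6 rose, Spred1 and Spred2 fell by less, and Spry1 was not called. Of 27 members tested, RA raised 12 and lowered 11 relative to DMSO, and 4 were not called. The called share was 85.2%, against 78% of all 16015 genes tested, so the number of called members is close to the background of this comparison. By direction, 44.4% of the members were higher and 40.7% lower, against 35.9% and 42.1% of all genes. Changes of at least 2-fold were found in 8 members upward, which is 29.6% of those tested against 17.4% of all genes, and in 7 downward, which is 25.9% against 15% of all genes. The groups did not overlap in 24 of the 27, or 88.9%, against 81.7% of all genes. The median log2 difference was 0.31 over the tested members and -0.07 over all genes. These counts leave out 7 ligand genes that did not pass the filter on dim probes (Fgf2, Fgf3, Fgf6, Fgf12, Fgf16, Fgf20 and Fgf21), and 3 tested members, Fgf17, Fgf22 and Spry4, were above background on DMSO arrays alone. In bulk RNA, fewer cells expressing a gene and less RNA of it per cell cannot be told apart.

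**Figure D1:**
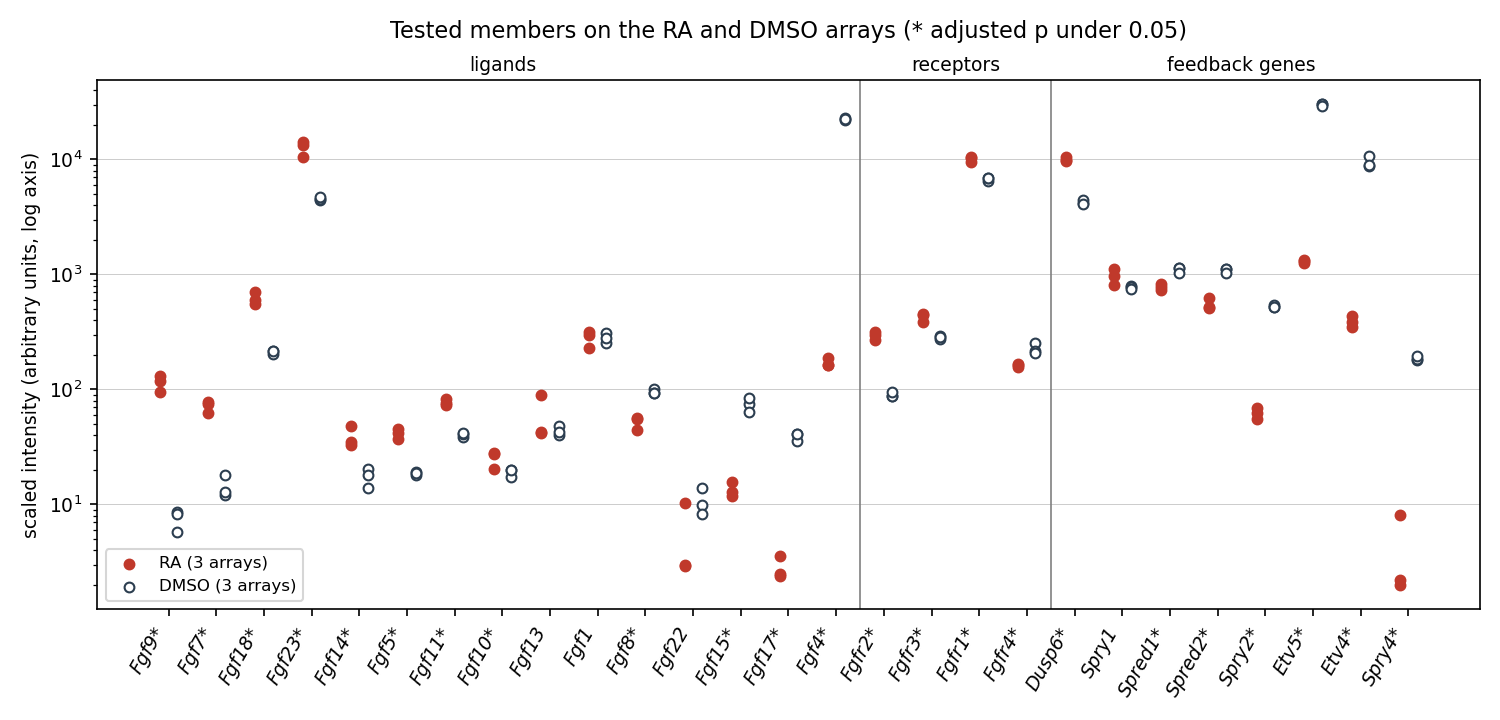
Scaled intensity (arbitrary units, log axis) of the 27 tested members on the 3 RA arrays (filled) and the 3 DMSO arrays (open), 1 point per array, ordered by log2 difference within ligands, receptors and feedback genes. Fgf4, Etv4, Etv5, Spry2 and Spry4 lie far lower on the RA arrays than on the DMSO arrays, while Dusp6 is higher on all 3 RA arrays. Levels can be compared between arrays for 1 gene, not between genes.

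Among the ligands, Fgf4 changed most. Its level was 186, 165 and 164 on the RA arrays, against 21909.7, 22812 and 22377 on the DMSO arrays. Each RA array therefore lay about 2 orders of magnitude under each DMSO array, though Fgf4 was still well above background on all 3 RA arrays. The difference was 130.5-fold (limma log2 difference -7.03, SE 0.07, adjusted p = 6.07e-08).

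Fgf9, a ligand of mesenchymal and gonadal development, moved the other way. Its level was 118, 95.0 and 132 on the RA arrays, against 8.68, 5.77 and 8.23 on the DMSO arrays, of which 2 were well above background. The groups were far apart, and Fgf9 was 15.3-fold higher (limma log2 difference 3.94, SE 0.19, adjusted p = 6.66e-06). Fgf7, the keratinocyte growth factor that signals to epithelia, had 74.6, 78.2 and 62.7 in RA against 17.9, 12.2 and 12.9 in DMSO. It was 5.06-fold higher (limma log2 difference 2.34, SE 0.17, adjusted p = 3.32e-05).

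The sequences before the starts of Fgf4 and Fgf7 are printed to set the ligand that fell most beside a ligand that rose and whose promoter holds a letter match. Each is the 250 bases before the annotated start on the plus strand, from the RefSeq promoter table of build GRCm38.p6, with Fgf4 at chr7:144861136-144861385 and Fgf7 at chr2:126034408-126034657. Capitals mark AGGTCA, the hexamer that retinoic acid receptors are known to bind.
Fgf4: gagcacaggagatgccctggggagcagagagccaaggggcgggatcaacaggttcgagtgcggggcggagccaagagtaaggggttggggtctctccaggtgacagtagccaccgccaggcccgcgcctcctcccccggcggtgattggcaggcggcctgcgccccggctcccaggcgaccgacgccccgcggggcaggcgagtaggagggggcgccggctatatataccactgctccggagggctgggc
Fgf7: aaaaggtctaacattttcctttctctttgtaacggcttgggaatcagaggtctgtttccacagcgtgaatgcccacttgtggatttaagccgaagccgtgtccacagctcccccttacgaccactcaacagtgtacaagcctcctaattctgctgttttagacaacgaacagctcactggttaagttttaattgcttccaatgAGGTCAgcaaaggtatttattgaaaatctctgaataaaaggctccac
The Fgf4 stretch has 71.2% G and C and 21 CpG pairs, and the Fgf7 stretch has 43.6% G and C and 6 CpG pairs. The AGGTCA of Fgf7 begins at position -47, counted from -1 at the base before the start. The table held 33 promoters of 25 members, each running from 250 bases before to 50 after a start, and both strands were searched. AGGTCA was in 4 of the 33, those of Fgf7, Spry2, Fgf6 and Fgf12, against 16.3% of all 32851 promoters. The direct repeat of this hexamer with 5 free bases between the copies, which contains the hexamer, was in none of the 33 and in 0.00913% of all. The ETS core CCGGAAG was in none and in 8.86% of all, and the octamer ATTTGCAT was in 1, that of Fgf12, and in 1.74% of all. These are matches of letters and do not show binding, and a promoter without a match was searched only in this window.

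The other ligands that rose were Fgf18, Fgf23, Fgf14, Fgf5, Fgf11 and Fgf10. Fgf18, a ligand of bone and lung development, had 551, 603 and 701 on the RA arrays against 218, 204 and 217 on the DMSO arrays. It was 2.89-fold higher (limma log2 difference 1.53, SE 0.10, adjusted p = 2.12e-05), and its second probe lay at 1.42. Fgf5, a marker of the primed epiblast, had 41.7, 36.8 and 45.7 in RA against 19.2, 18.1 and 18.8 in DMSO and was 2.21-fold higher (limma log2 difference 1.14, SE 0.09, adjusted p = 5.54e-05). The intracellular FGF homologous factors Fgf14 and Fgf11, which bind sodium channels and are not secreted, lay at log2 differences of 1.14 (SE 0.20, limma adjusted p = 0.002) and 0.94 (SE 0.07, limma adjusted p = 4.34e-05). Fgf14 was 34.6, 32.6 and 48.1 in RA against 13.8, 20.1 and 18.1 in DMSO, and its second tested probe lay at 0.72. Fgf11 was 82.9, 73.0 and 76.9 in RA against 38.8, 40.6 and 41.7 in DMSO, so neither gene's groups overlapped.

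Fgf10, a ligand of limb and lung budding, came closest to the threshold among called members. It had 27.4, 28.0 and 20.2 in RA against 19.9, 17.3 and 20.05 in DMSO, and the lowest RA array lay just above the highest DMSO array. The log2 difference was 0.39 (SE 0.14, limma adjusted p = 0.0444). It was not called under 11 other settings, and with scaling to spike-in spots it turned to -0.09 (limma adjusted p = 0.744). Without 1 array it was called only when RA replicate 3 was the one left out, and the adjusted p without each of the others was between 0.0729 and 0.131.

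The result for Fgf23, an endocrine ligand that controls phosphate in the adult, rested on 1 of 2 probes. The brighter probe read 13300, 10580.4 and 14155.8 on the RA arrays and 4423, 4516 and 4729 on the DMSO arrays, and was 2.76-fold higher in RA (limma log2 difference 1.47, SE 0.12, adjusted p = 5.46e-05). The other probe, matched to the same transcript, was not well above background on any of the 6 arrays, with 4.04, 2.32 and 2.99 in RA against 4.98, 3.68 and 3.85 in DMSO. The probes therefore disagree on whether Fgf23 RNA was detected, and what the brighter probe binds was not tested. On the VC design Fgf23 had 2 probes, well above background on no ddH2O array and on at most 1 VC array. Its place among the members counted as higher in RA thus rests on the brighter probe alone.

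Besides Fgf4, the ligands Fgf17, Fgf15 and Fgf8 fell. Fgf17 and Fgf8 belong to the same subfamily and act in patterning of the early embryo and midbrain, and Fgf15 is an endocrine ligand of the gut that is also expressed in embryonic neural tissue. Fgf15 had 15.8, 11.9 and 12.9 on the RA arrays, of which 2 were well above background, against 74.9, 63.2 and 84.0 on the DMSO arrays. It was 5.49-fold lower (limma log2 difference -2.46, SE 0.15, adjusted p = 1.52e-05). Fgf17 had 2.39, 2.50 and 3.54 in RA, where no array was well above background, against 41.1, 35.8 and 41.0 in DMSO. It was at least 4.26-fold lower (limma adjusted p = 3.54e-06). This bound, and each other given as at least, set the control mean against a floor for each treated array. The floor was the higher of the array's lowest signal well above background and the probe's own signal. That floor is not a probe's own detection limit, so the bounds are approximate. On RA replicate 2, 1 Fgf8 probe read 13.1, above the lowest signal of 6.30, yet was not well above background. A normexp background correction was also fitted, with an offset of 50 added to each signal. Under it Fgf17 lay at -0.15 and was not called (limma adjusted p = 0.123). Other members kept their calls under that correction at smaller log2 differences, with Fgf15 at -0.44, Fgf8 at -0.26, Fgf9 at 1.84, Fgf7 at 1.24, Spry2 at -2.07 and Spry4 at -1.79. Not every dim member moved that way: Fgf10 lay at 0.60, against 0.39 in the setting reported, and Fgf22 turned to 0.45. The part of the offset in these shifts was not tested.

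Fgf8 had 44.7, 55.6 and 56.2 in RA against 101, 93.5 and 92.3 in DMSO. It was 1.84-fold lower with groups well apart (limma log2 difference -0.88, SE 0.11, adjusted p = 0.000358). A second probe of Fgf8 was well above background on all DMSO arrays and on no RA array, so its difference has no exact size, and the remaining probe was not well above background on any of the 6 arrays. Of the ligands that were tested and not called, Fgf1, the broadly acting acidic FGF, lay at -0.02 (limma adjusted p = 0.924) and Fgf13, another FGF homologous factor, at 0.32 (limma adjusted p = 0.355). In Fgf13 1 RA array, at 88.6, stood above the others, which read 42.8 and 42.1 in RA against 40.1, 48.4 and 42.3 in DMSO. Fgf22, a ligand known from synapse formation, was not called (limma adjusted p = 0.0701), with 10.3, 2.96 and 2.93 in RA against 13.95, 9.92 and 8.21 in DMSO, and no RA array was well above background. Its difference therefore has no exact size, and the bound was at least 1.08-fold lower. It was called lower under 6 alternatives (median and spike-in scaling, quantile normalization, the authors' series values, the replicate block, and without RA replicate 1) and higher with normexp background correction.

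All 4 receptors were above background on all 6 arrays and all 4 were called. Fgfr2 changed most, with 295, 317 and 269.7 on the RA arrays against 87.0, 88.2 and 94.8 on the DMSO arrays. It was 3.26-fold higher (limma log2 difference 1.71, SE 0.08, adjusted p = 5.76e-06). A second Fgfr2 probe had 110.3, 126 and 89.6 in RA against 12.1, 11.0 and 10.9 in DMSO and lay at 3.25, so both probes rose by different amounts, and the mean of the probes lay at 2.48. Fgfr2 is the receptor known for the primitive endoderm and trophoblast lineages of the early embryo.

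Fgfr1, the main FGF receptor of embryonic stem cells, had 10341.5, 9438 and 10530.2 in RA against 6509, 6900.3 and 6859.9 in DMSO. It was 1.49-fold higher (limma log2 difference 0.58, SE 0.07, adjusted p = 0.000328), while its other probes lay at 0.27 and 0.36, the first of them not called when probes were tested singly (76.2% of probes were called that way). Fgfr3 had 449, 444 and 386 in RA against 275, 291 and 287 in DMSO and was 1.496-fold higher (limma log2 difference 0.58, SE 0.08, adjusted p = 0.000633), and its second probe, at 0.14, was not called. With scaling to spike-in spots Fgfr1 and Fgfr3 lay at 0.10 each and neither was called (limma adjusted p = 0.634 and 0.686), and with scaling to the median spot Fgfr3 lay at 0.24 and was not called (limma adjusted p = 0.0635).

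Fgfr4 was the member whose tested probes differed in sign. The brighter probe had 164, 156 and 167 in RA against 252, 216 and 207 in DMSO and fell by 0.47 on the log2 scale (SE 0.09, limma adjusted p = 0.00304). The dimmer probe had 39.3, 43.0 and 39.4 in RA against 39.9, 33.1 and 32.6 in DMSO, lay at 0.21 and was not called (limma adjusted p = 0.0962). With the mean of both probes Fgfr4 lay at -0.13 and was not called (limma adjusted p = 0.221).

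**Figure D2:**
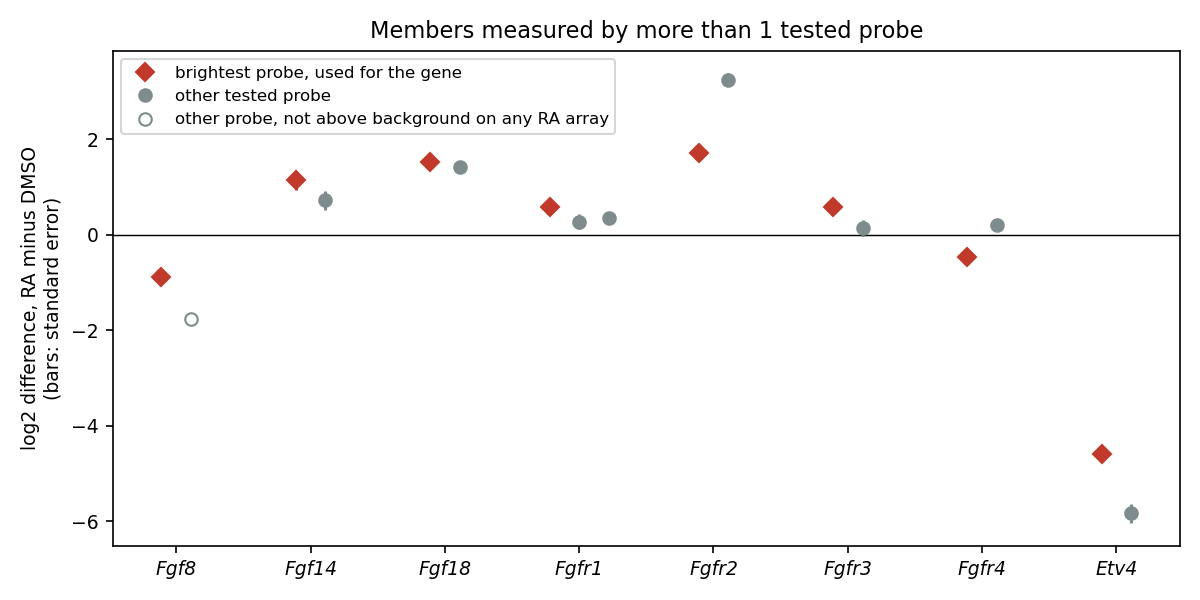
Log2 difference, RA minus DMSO, of each tested probe of the 8 members with more than 1 tested probe; bars are limma standard errors, diamonds the brightest probe, used for the gene, and circles the other probes. The open circle of Fgf8 is a probe not above background on any RA array, so its place is no exact size. Both Etv4 probes lie below 0, the Fgfr2 probes lie at 1.71 and 3.25, and the Fgfr4 probes lie on both sides of 0.

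Of 8 feedback genes tested, 6 were lower, 1 was higher and 1, Spry1, was not called, and the median log2 difference was -2.04. Over all genes 42.1% were lower and 35.9% higher, and 78% were called. Both ETS factors fell. Etv5 had 1317, 1256 and 1347 on the RA arrays against 30323.6, 30276.2 and 29249.2 on the DMSO arrays, a 22.9-fold lower level (limma log2 difference -4.52, SE 0.06, adjusted p = 8.76e-08). Etv4 had 389, 349.5 and 433 in RA against 10612, 8760.3 and 8971 in DMSO and was 24.2-fold lower (limma log2 difference -4.60, SE 0.11, adjusted p = 4.18e-07). A second Etv4 probe, at 55.2, 39.7 and 31.1 in RA against 2499, 2261 and 2224 in DMSO, lay at -5.83, and the mean of both probes at -5.21.

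Of the Sprouty genes, which encode inhibitors of RAS and ERK signalling, Spry2 had 62.7, 68.5 and 55.4 in RA against 519.8, 547 and 523 in DMSO. It was 8.54-fold lower (limma log2 difference -3.09, SE 0.09, adjusted p = 8.04e-07). Spry4 was not well above background on any RA array, at 1.98, 2.19 and 8.10, against 179, 184 and 194 in DMSO, and was at least 20.2-fold lower (limma adjusted p = 9.68e-05). Spry1 stood apart from both, with 968, 1120.4 and 811 in RA against 786, 785 and 751 in DMSO. Its groups did not overlap, but at a log2 difference of 0.31 (SE 0.12) it missed the threshold (limma adjusted p = 0.0544). It was called higher under 5 other settings, with quantile normalization, in the authors' series values, among genes above background on all arrays, with a trended and robust variance, and without RA replicate 3.

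The Spred genes, relatives of the Sprouty genes that also restrain RAS, fell by less. Spred2 had 621, 524 and 509 in RA against 1108, 1120.2 and 1021 in DMSO and was 1.97-fold lower (limma log2 difference -0.98, SE 0.10, adjusted p = 0.00013). Spred1 had 732, 774 and 824 in RA against 1132, 1137 and 1022 in DMSO and was 1.41-fold lower (limma log2 difference -0.50, SE 0.08, adjusted p = 0.00116). Dusp6, the phosphatase that removes the activating phosphates of ERK, had 9926, 9737 and 10466 in RA against 4173, 4393 and 4120.3 in DMSO. It was thus 2.37-fold higher (limma log2 difference 1.25, SE 0.06, adjusted p = 6.9e-06), in the opposite direction to the other called feedback genes.

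Further genes of the pathway were read from 3 lists, against a background of 35.9% higher and 42.1% lower over all genes. Of 26 adaptor and ERK cascade genes tested, 5 were higher and 15 lower in RA, with a median log2 difference of -0.26. Gab1, a docking protein below the receptors, had 959, 1046 and 631 in RA against 2976, 2758 and 2806 in DMSO and fell by 1.73 on the log2 scale. Map2k1, which encodes the ERK kinase MEK1, fell by 1.19, and Rps6ka2, an RSK kinase activated by ERK, fell by 0.81. Among those that rose were Nf1, which switches RAS off (1.60), the RSK kinase Rps6ka3 (0.85) and the RAS exchange factor Sos2 (0.63).

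Of 24 cofactor and heparan sulfate genes tested, 17 were higher and 3 lower, with a median of 0.86. Flrt3, a membrane protein known to promote FGF signalling in the frog embryo, had 5469.7, 5666 and 5123 in RA against 278, 349.9 and 300.2 in DMSO and was 17.6-fold higher. The heparan sulfate sulfotransferase Hs6st2 (log2 difference 3.56) and the proteoglycan Gpc3 (2.95) also rose, while Fibp, which encodes an intracellular FGF-binding protein (-0.75), the sulfotransferase Hs2st1 (-0.73) and the extracellular sulfatase Sulf2 (-0.60) fell. Of 23 other ERK feedback and target genes, 8 were higher and 10 lower, with a median of -0.23. Phlda1, an ERK-induced gene, was 34.3-fold higher, with 17068, 18608 and 16218 in RA against 465, 493 and 557 in DMSO, and Rasgef1b (2.12) and Shc4 (1.17) rose as well. The receptor tyrosine kinase Epha2 (-4.12), the ETS factor Etv1 (-3.72) and the early response gene Ier3 (-2.64) fell. Etv1, the third ETS factor of the Etv4 subfamily, had 514, 567 and 565 in RA against 7142, 7191 and 7352 in DMSO.

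Markers of cell types also differed between RA and DMSO, in a comparison where 35.9% of all genes were higher and 42.1% lower. Of 9 pluripotency markers 8 were lower and 1, Nanog, higher in RA. All 8 primitive endoderm markers were higher, with a summed intensity of 27990 to 33720 on the RA arrays and 12060 to 13040 on the DMSO arrays. The laminin genes Lamb1 and Lama1 held most of these sums, with means of 15346 and 13260 in RA against 7085 and 5040 in DMSO. Of 7 neural markers 5 were higher and 2 lower, with sums of 9734 to 10110 in RA and 3406 to 3470 in DMSO. Of 6 fibroblast markers tested 5 were higher and 1 lower, with sums of 17510 to 18680 in RA and 1149 to 1205 in DMSO, and Lum and Postn were not above background on any of the 6 arrays. Col1a2 alone held most of the fibroblast sum in RA, with a mean of 15684 there against 229 in DMSO. Of 5 blood and endothelial markers tested 3 were higher and 1 lower, and Cdh5 and Hbb-bt were not above background on any of the 6 arrays. The part of these cell types in the results for the FGF genes was not tested.

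Another scaling moved the median log2 difference of all genes from -0.07 to -0.42 with the median spot and to -0.56 with spike-in spots. The directions of the members called in RA held under both, except for Fgf10 as given above, and 10 and 9 members were then called higher, with 12 lower in each case. Of 23 members called, 18 were called under every alternative that gave them a value, and the others were Fgf10, Fgf17, Fgfr1, Fgfr3 and Fgfr4.

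In VC fewer of the FGF pathway genes were called than not. The ligands Fgf10, Fgf3, Fgf8 and Fgf13 were lower in VC than in ddH2O, the feedback genes Spry2 and Etv4 were higher, and no receptor was called. Fgf10 was at least 2.67-fold lower, and the other called members differed by less than 2-fold. Of 23 members tested, 2 were higher, 4 lower and 17 not called. The called share was 26.1%, against 17.1% of all 14531 genes tested. By direction it was 8.7% higher and 17.4% lower, against 6.59% and 10.5% of all genes. The groups did not overlap in 11 of the 23, or 47.8%, against 42.1% of all genes, and 1 member, Fgf10, was called and at least 2-fold lower, against 0.268% of all genes. No member was called and at least 2-fold higher, against 0.0138% of all genes. Ligands had a median log2 difference of -0.30, receptors 0.07 and feedback genes 0.15, where the median of all genes was -0.00059. The 10 other members with a probe were ligands that did not pass the filter (Fgf2, Fgf6, Fgf7, Fgf9, Fgf12, Fgf14, Fgf16, Fgf20, Fgf21 and Fgf23), and Fgf10 passed it through the ddH2O arrays alone.

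**Figure D3:**
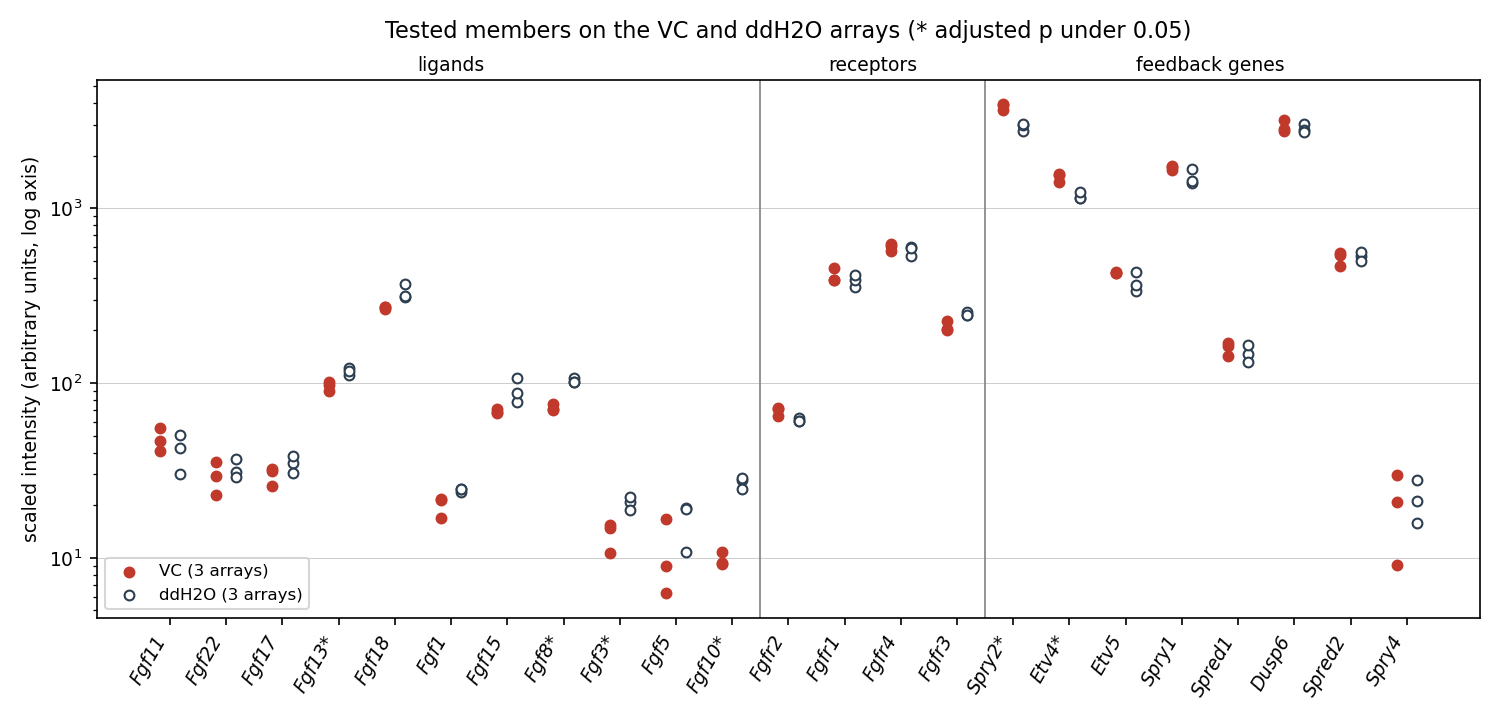
Scaled intensity (arbitrary units, log axis) of the 23 tested members on the 3 VC arrays (filled) and the 3 ddH2O arrays (open), 1 point per array, ordered within ligands, receptors and feedback genes. Fgf10 lies at 9.25 to 10.8 on the VC arrays and at 24.9 to 28.8 on the ddH2O arrays; most other members lie close together. Levels can be compared between arrays for 1 gene, not between genes.

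Fgf10 had 9.29, 10.8 and 9.25 on the VC arrays, none of them well above background, against 28.1, 28.8 and 24.9 on the ddH2O arrays, all of them above it. The 2 groups were clearly apart, and Fgf10 was at least 2.67-fold lower (limma adjusted p = 0.00314). Its measured log2 difference was -1.48 (SE 0.09). With normexp background correction, again with an offset of 50, Fgf10 was not called. It lay at -0.30 without spots of high local background (limma adjusted p = 0.144) and at 0.81 with them (limma adjusted p = 0.652).

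Fgf8 had 70.6, 70.1 and 75.6 in VC against 106.9, 102 and 101.5 in ddH2O and was 1.43-fold lower (limma log2 difference -0.52, SE 0.06, adjusted p = 0.00744). Fgf3, a ligand of inner ear and tail development, had 14.8, 15.4 and 10.6 in VC against 20.8, 18.9 and 22.4 in ddH2O (limma log2 difference -0.62, SE 0.15, adjusted p = 0.0407). Fgf13 had 89.8, 97.6 and 101.9 in VC against 122, 110.7 and 117 in ddH2O (limma log2 difference -0.27, SE 0.07, adjusted p = 0.045). None of these groups overlapped, though Fgf3 and Fgf13 lay near the threshold. The other Fgf13 probes lay at -0.35 and -0.43, and neither was called when probes were tested singly, nor was the first (12.9% of probes were called that way).

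Among the feedback genes, Spry2 had 3912, 3635 and 3935 in VC against 2787, 3016 and 3025 in ddH2O and was 1.30-fold higher (limma log2 difference 0.38, SE 0.06, adjusted p = 0.0156). A second Spry2 probe did not follow it, with 262, 241.5 and 173 in VC against 201, 217 and 245 in ddH2O (log2 difference 0.01, limma adjusted p = 0.962), and with the mean of both probes Spry2 was not called (0.20, limma adjusted p = 0.193). Etv4 had 1568, 1416 and 1552 in VC against 1146, 1141 and 1238 in ddH2O and was 1.29-fold higher (limma log2 difference 0.36, SE 0.07, adjusted p = 0.0198). Etv5 lay at 0.20 (SE 0.10, limma adjusted p = 0.197) and Spry1 at 0.20 (SE 0.08, limma adjusted p = 0.148), and in both genes 1 ddH2O array reached into the VC range. Dusp6 lay at 0.04 (SE 0.08), Spred1 at 0.10 and Spred2 at -0.04, with overlapping groups in each. Spry4 was dim and scattered, with 29.9, 20.8 and 9.12 in VC against 27.8, 15.9 and 21.3 in ddH2O. It was well above background on 2 VC arrays and on 3 ddH2O arrays.

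The receptors were above background on all 6 arrays and differed little. Fgfr3 had 201, 205 and 227 in VC against 246, 256 and 245 in ddH2O and just missed the threshold (limma log2 difference -0.24, SE 0.07, adjusted p = 0.051). Fgfr2 lay at 0.17 (SE 0.06, limma adjusted p = 0.105), with its second tested probe at 0.25, and all VC arrays lay above all ddH2O arrays on both probes. Fgfr1 lay at 0.09 (SE 0.09), with its other probes at -0.03 and 0.07, so the sign differed between probes. Fgfr4 lay at 0.06 (SE 0.07). The ligands Fgf18 and Fgf15 were also near the threshold, at -0.29 (limma adjusted p = 0.0546) and -0.39 (limma adjusted p = 0.0663), and in both the VC arrays lay below the ddH2O arrays. Fgfr3 was called lower under 4 alternatives and Fgf18 under 3: both with slide as a random block, among genes above background on all arrays and with a trended and robust variance, and Fgfr3 also without VC replicate 3. Fgf15 was called lower with a trended and robust variance. The feedback genes Spry1 and Etv5 were called higher without ddH2O replicate 3 (limma adjusted p = 0.0428 and 0.0425). Fgf1 (-0.30), Fgf5 (-0.69, SE 0.39), Fgf17 (-0.23), Fgf22 (-0.16) and Fgf11 (0.24) were not called. Of these, Fgf5 was well above background on only 1 VC array and 2 ddH2O arrays.

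The slide moved with the VC comparison in part. The slide that held both groups carried VC replicates 1 and 2 with ddH2O replicates 2 and 3. Fitted with slide as a fixed block, the same as comparing the groups within that slide, no gene of 14531 was called by limma, with 3890 at an unadjusted p under 0.05, and 10 members were under 0.05 unadjusted. Within the slide Fgf10 lay at -1.42 (SE 0.12, limma adjusted p = 0.056), Fgf8 at -0.53 (SE 0.06, limma adjusted p = 0.056) and Fgf3 at -0.44 (SE 0.10, limma adjusted p = 0.0959). Fgf13 lay at -0.28, Spry2 at 0.32 and Etv4 at 0.33, so each kept its direction. With slide as a random block, which also uses the arrays on the other slides, 1046 genes were higher and 1641 lower, and 2 members were higher and 6 lower. The 6 members reported were among them, with limma adjusted p between 0.00281 for Fgf10 and 0.0378 for Fgf13, together with Fgfr3 and Fgf18. Fgf10 and Fgf8 were called without any 1 of the 6 arrays. Spry2 was not called without VC replicate 1 or ddH2O replicate 1 or 2, and Etv4 not without VC replicate 1 or 3 or ddH2O replicate 1 or 2. Fgf3 was called only without VC replicate 2 or 3, and Fgf13 was not called whichever array was left out.

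**Figure D4:**
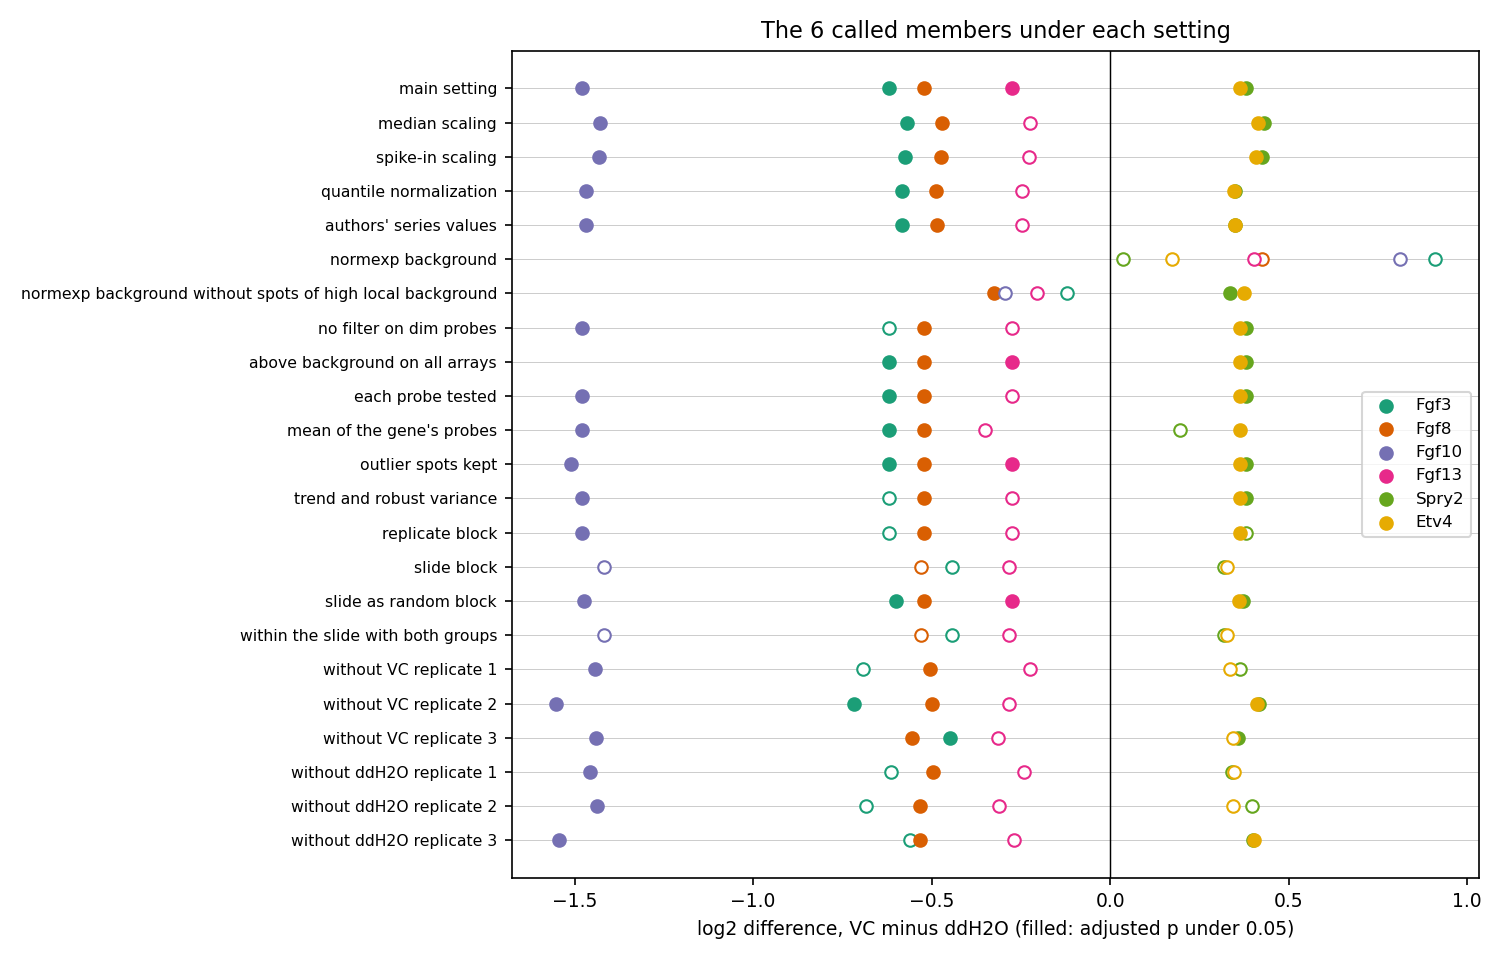
Log2 difference, VC minus ddH2O, of the 6 members called in VC, under the setting reported (top line) and each alternative; filled points have a limma adjusted p under 0.05 and open points do not. Fgf10, Fgf8, Fgf3 and Fgf13 lie below 0 and Spry2 and Etv4 above 0 under every alternative except the first normexp background correction, where the 4 ligands lie above 0 and none of the 6 is called.

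Among the further pathway genes called in VC, Egr1 was 2.24-fold lower and the others differed by less than 2-fold. The shares to set these counts against are 6.59% higher and 10.5% lower over all genes. Of 26 adaptor and ERK cascade genes 3 were higher and none lower: Gab1 (0.28), Nf1 (0.25) and Map2k1 (0.24). Of 24 cofactor and heparan sulfate genes 4 were higher, among them the sulfotransferases Ndst2 (0.39) and Ndst1 (0.29) and the proteoglycan Gpc4 (0.22), and 2 were lower, Flrt3 (-0.37) and the proteoglycan Sdc2 (-0.34). Of 20 other ERK feedback and target genes none was higher and 3 were lower. Egr1, which encodes an early transcription factor, had 283, 289.8 and 304 in VC against 712, 634 and 621 in ddH2O (limma log2 difference -1.16, SE 0.07, adjusted p = 0.00314). Fos, another immediate early gene, lay at -0.44, and the ERK phosphatase gene Dusp2 at -0.25. Median log2 differences of the 3 lists were 0.06, -0.01 and 0.04.

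Markers of other cell types were lower or overlapped in VC. The shares to set the marker counts against are 6.59% higher and 10.5% lower over all genes. Primitive endoderm markers summed to 2222 to 2500 on the VC arrays and 3052 to 3149 on the ddH2O arrays, with 2 of 7 called lower. These were the laminin genes Lamb1 (mean 1777 in VC against 2407 in ddH2O) and Lama1 (257 against 306), which held most of the sum. Gata6, Gata4, Sox17, Sox7 and Dab2 were not called. Fibroblast markers summed to 2194 to 2229 in VC and 2759 to 3030 in ddH2O, with 3 of 6 called lower. Neural markers summed to 2589 to 2729 in VC and 2720.0 to 2863 in ddH2O, with 1 of 6 called lower, and of 4 blood and endothelial markers tested 1 was called lower. Of 8 pluripotency markers 4 were called higher. Their part in the results for Fgf10, Fgf8, Fgf3 and Fgf13 was not tested.

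The comparisons shared no control sample, and 22 members were tested in both. In both, 4 members were called: Fgf8 was lower in RA and in VC, while Fgf10 was higher in RA and lower in VC, and Spry2 and Etv4 were lower in RA and higher in VC. None of these VC calls held under every alternative, nor did the RA call of Fgf10, as given above. The second Spry2 probe lay at 0.01 in VC. The share of all genes called in both comparisons was not computed, so the count has no background to be set against. Fgf10 was read by the same probe on both designs, as were 15 member probes in all, whereas the probes of Fgf8, Spry2 and Etv4 differed between the designs. The sizes were unequal: Etv4 lay at -4.60 in RA and at 0.36 in VC, and Spry2 at -3.09 in RA and at 0.38 in VC. Dusp6, read by the same probe on both designs, lay at 1.25 in RA and at 0.04 in VC. No test of the difference between the comparisons was made, because the designs were normalized separately.

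**Figure D5:**
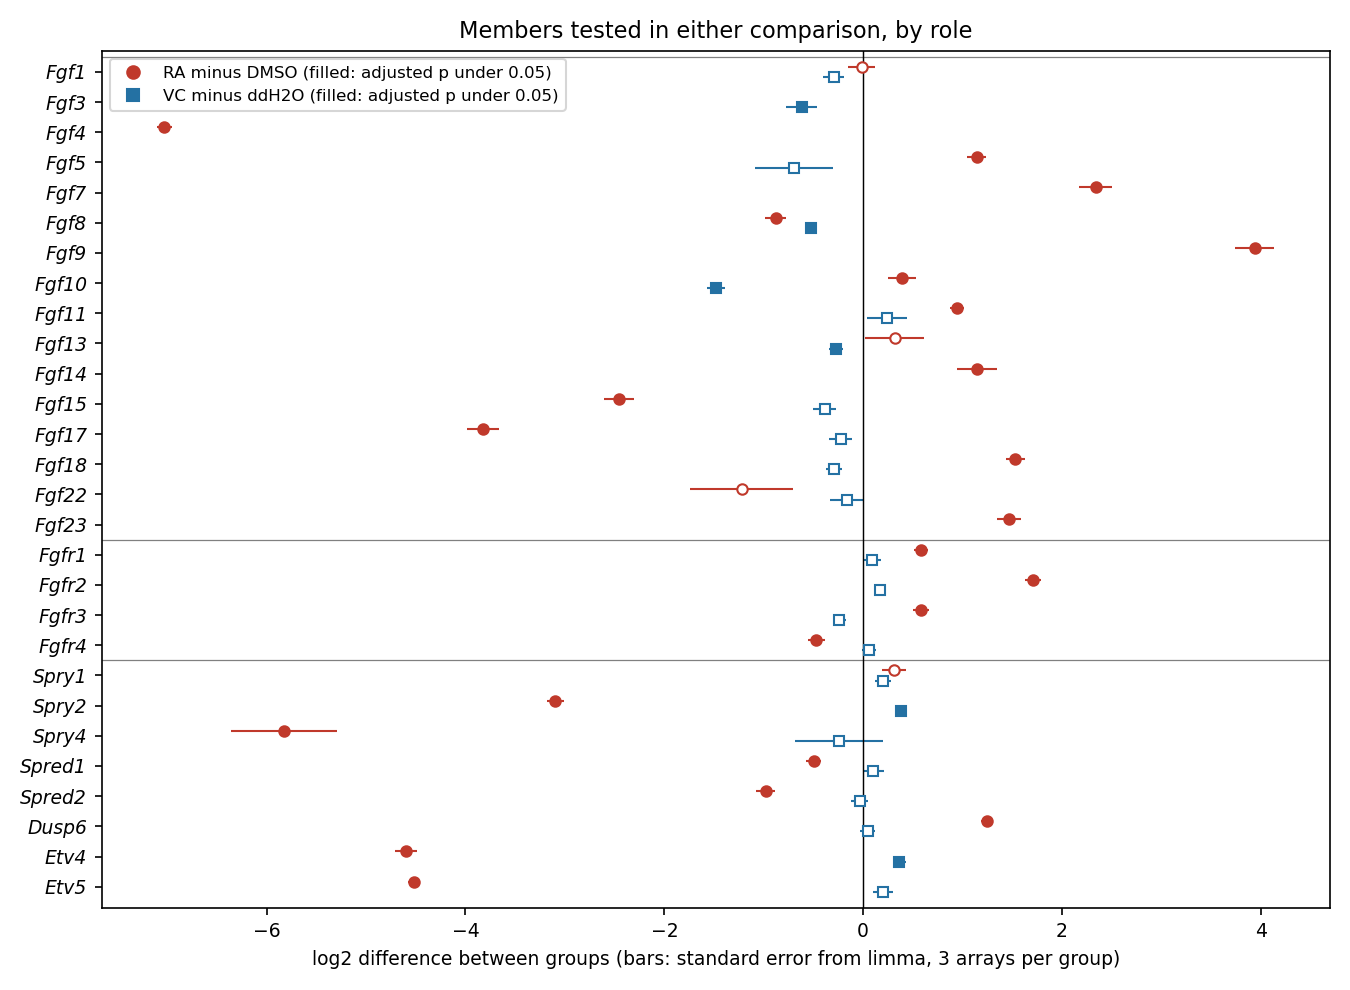
Log2 difference of every member tested in either comparison, RA minus DMSO (circles) and VC minus ddH2O (squares); bars are limma standard errors with 3 arrays per group, and filled symbols have an adjusted p under 0.05. RA differences run from -7.03 for Fgf4 to 3.94 for Fgf9, and VC differences reach 0.38 for Spry2. Fgf17, Fgf22 and Spry4 in RA and Fgf10 in VC were not above background on any array of the treated group, so their plotted places are measured values and not exact sizes.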

How the data were processed

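Total RNA was labelled with 1 dye and hybridised to Agilent arrays. Per the file headers, each spot's processed intensity had been background-subtracted in Agilent Feature Extraction 10.7.3.1 before deposit (10.7 in the submitters' processing notes). The authors also deposited log2 values per probe for the whole series, whose column medians were 5.96 for VC and ddH2O and 5.184 for RA and DMSO. Set against the log2 scanner signal, these ran in the same direction with slopes of 0.9775 to 1.079; the step that centred them was not given in the sources used here.

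The processed intensity was put on the log2 scale here, less its 75th percentile over the non-control spots of the array. Outlier spots were left out and spots of a probe averaged. Unversioned accessions were matched to symbols through a RefSeq table of GRCm38.p6, used for names (27235 probes and 20660 genes on the RA design, 27479 and 18749 on the VC design). Each comparison was fitted on its 6 arrays with limma 3.58.1 in R 4.3.3 (lmFit, eBayes), with Benjamini-Hochberg adjustment over all genes tested; the fit was tested on simulated data. The number of arrays limits the precision. With 3 samples a group, an exact permutation test could not go below 0.1, so none was used.

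The members and lists were chosen with earlier results of these data known. All members are named; values per array are given first for called members without overlap and for members whose probes disagree, and up to 3 rises and 3 falls of each further list are named. Fgf23, whose second probe was not tested, and values of members that were not called were added after their values were seen. Same-numbered replicates had deviations that correlated between -0.05458 and -0.002665 (RA, DMSO) and between -0.1165 and 0.06044 (VC, ddH2O), so no pairing by number was seen. With 3 samples a group these values cannot exclude a weak pairing. One marker gene and the sums that held it are not reported here. Alternatives changed the scaling, background correction, filter, probe summary, variance model, block or samples.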

Additional observations from a re-analysis of the deposited data

How the results depend on the processing

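Of 23 members called in RA, 415 of 433 values under the alternatives kept the call, 17 lost it and 1 turned. Of 6 called in VC, 79 of 131 kept the call, 48 lost it and 4 turned. In RA no count of called members moved by over 1.5 times: 9 to 15 were higher and 8 to 12 lower over all settings, against 12 and 11, and 11 to 13 were higher and 11 to 12 lower with 1 sample left out. In VC, where 2 were higher and 4 lower, the planned normexp background correction and the slide as a block (the same as the comparison within the shared slide) gave 0 higher and 0 lower, normexp without spots of very high local background gave 1 lower, no filter on dim probes gave 2 lower and the mean of a gene's probes gave 1 higher. Slide as a random block gave 2 higher and 6 lower. With 1 sample left out, 0 to 4 were higher and 2 to 4 lower. Without VC replicate 1, ddH2O replicate 1 or ddH2O replicate 2, 0 were higher and 2 lower, without VC replicate 3 there was 1 higher, and without ddH2O replicate 3 there were 4 higher and 2 lower.

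Under the planned normexp correction the VC differences of Fgf3, Fgf8, Fgf10 and Fgf13 turned to 0.91, 0.43, 0.81 and 0.40, none of them called. In that fit 309 genes had an unadjusted limma p under 0.05 and 0 were called. It ran on the median signal, and the cause was not tested. Without spots of very high local background the same correction called 370 genes higher and 616 lower. Fgf3, Fgf8, Fgf10 and Fgf13 then lay at -0.12, -0.33, -0.30 and -0.21, and of these only Fgf8 was called. In RA, Fgf10 turned to -0.094 with spike-in scaling, and Fgf22, not called in the setting reported, was 0.45 and called under both normexp fits, which were identical.

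Over all genes the VC calls, 958 higher and 1533 lower, ran from 0 to 1567 higher and 0 to 1845 lower, and those of RA, 5742 and 6745, from 2899 to 8336 higher and 6179 to 8795 lower. The share of calls that were higher was 46.0% in RA (31.1% with median and 25.3% with spike-in scaling) and 38.5% in VC (56.7% and 49.3%). With the replicate number as a block, 11 members were higher and 12 lower in RA and 1 higher and 2 lower in VC. No source states that the numbers pair the samples, and no pairing was seen. The slide could not be a block in RA, since each slide held 1 group.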

Other observations

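Ligand genes too dim to test also had readings, given here as values with no test. On the RA and DMSO arrays Fgf12, an FGF homologous factor of excitable cells, read 7.57, 9.90 and 7.65 in RA against 1.77, 1.86 and 1.80 in DMSO, and Fgf6, a ligand of muscle, read 6.58, 7.10 and 3.72 in RA against 1.60, 2.94 and 1.90 in DMSO. Fgf16 and Fgf20, close relatives of Fgf9, read 2.51, 5.31 and 3.65 and 2.32, 3.30 and 3.51 in RA against 1.84, 1.82 and 1.79 and 1.77, 1.65 and 1.61 in DMSO. Fgf2 read 2.72, 2.70 and 3.67 in RA against 2.36, 2.56 and 1.71 in DMSO. These 5 genes are all the members that were well above background on none of the 6 arrays. In each of them every RA array read above every DMSO array. The groups did not overlap in 81.7% of all genes tested, and the share among genes at background was not computed. With no filter on dim probes the median log2 difference of all genes was 0.20, against -0.07 with it. The unscaled 75th percentile by which these readings were scaled was lower on the RA arrays, as given above, and its part in these readings was not tested.

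Fgf3, well above background on 1 RA array, read 10.5, 20.7 and 5.00 in RA against 7.83, 8.60 and 4.56 in DMSO. Fgf21, a metabolic hormone, was well above background on 2 DMSO arrays and read 2.18, 2.28 and 2.99 in RA against 5.94, 9.91 and 9.77 in DMSO. Fgf2, the basic FGF used in culture of primed stem cells, reached that level on no array of either design.

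On the other design Fgf9 was well above background on 2 ddH2O arrays and read 8.96, 10.4 and 11.96 in VC against 10.2, 16.2 and 17.1 in ddH2O. Fgf7 was well above background on 1 ddH2O array and Fgf23 on 1 VC array.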
